A study of Mus musculus with 8 samples.

Results

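Gata3 and a group of genes typical of T helper 2 (Th2) cells were followed across 8 mouse gene expression arrays of cells that had been cultured toward the T helper 17 (Th17) fate. The group was defined by 7 symbols, and a probe set belonged to it if the platform table gave it 1 of these symbols alone. This found 5 of the 7 genes, Gata3, Il4, Il5, Il13 and Penk, with 1 probe set each, among 19938 genes named in this way. The table lists no probe set for Il1rl1, the receptor gene for IL-33, or for Areg, the gene of the growth factor amphiregulin, and these were not analysed here.

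The arrays came from 2 experiments with 2 arrays in each of 4 groups. The first set SRC-3 deficient cells, whose source was labelled SRC-3 (f/f) mice, beside cells of SRC-3 WT mice. The second set RORgt deficient cells, from RORgt (-/-) mice, beside cells of RORgt WT mice. All 4 groups were labelled Th17 cells. The shared protocol describes naive CD4+ T cells stimulated through CD3 and CD28 with IL-1, IL-6 and IL-23, and no array labelled as cells without added cytokines was analysed here. SRC-3 (gene Ncoa3) is a transcriptional coactivator used by nuclear receptors, and RORγt is the nuclear receptor at the centre of the Th17 programme. The labels do not name the Cre line that acts on the f/f allele, and mouse strain and age are not given in the sources used here. The titles name biological replicates but not their animals. The p-values reflect only how far arrays of the same group lay apart, pooled over the 4 groups, which may be technical.

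GATA3 is a zinc finger transcription factor that is required for T cell development and, at higher levels, commits CD4 T cells to the Th2 fate. It opens and activates a cytokine locus in which the genes of IL-4, IL-5 and IL-13 lie close together, and IL-4 acts back through STAT6 to raise Gata3. In mice GATA3 and RORγt are regarded as opposing regulators in T helper cells, while innate lymphoid cells can use both. Penk, which encodes the precursor of the enkephalin opioid peptides, is expressed by subsets of activated and regulatory T cells, and regulatory T cells can also express Gata3.

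The genes of T cells (Cd3e, Cd3d, Cd3g, Cd4, Cd28 and Lat) had log2 signals between 11.58 and 13.56 on all arrays, and none of them passed the test in either comparison. The median signal of all probe sets, 7.85, served as the lower limit of clearly measured signal. Of 8 genes of basophils and mast cells, which also make IL-4 and IL-13, 7 lay below this value on every array, and Gata2 reached at most 7.87. Averaged over these 8 genes, RORγt-deficient cells had 6.29 and 6.36, against 6.33 and 6.38 in their wild-type cells. SRC-3-deficient cells had 6.25 and 6.25, against 6.24 and 6.32 in theirs. Ncoa3 had 11.15 and 10.97 in SRC-3-deficient cells, against 11.76 and 11.53 in their wild-type cells (log2 difference −0.58, SE 0.09, limma adjusted p = 0.0567). The labels do not say which part of the gene the allele removes.

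Among genes of other cells, those below the lower limit of clear signal on every array were 2 of 3 eosinophil genes, 3 of 4 B cell genes, 4 of 5 genes of macrophages and dendritic cells, 1 of 2 genes of CD8 T cells and 3 of 4 genes of NK cells. The fourth NK gene, Klrd1, which activated T cells can also express, had 8.92 and 8.61 in RORγt-deficient cells, against 7.01 and 6.71 in their wild-type cells. It reached the limit of clear signal on those 2 deficient arrays alone, with 7.01 and 7.13 in SRC-3-deficient cells, against 7.46 and 7.61 in their wild-type cells. Averaged over the 4 NK genes, the levels were 6.18 and 6.01 in RORγt-deficient cells, against 5.60 and 5.51 in wild-type cells. This average includes Klrd1, the only gene of the 4 that reached the limit, and does not show a rise of the other 3. The other gene of CD8 T cells, Cd8b1, a chain of the CD8 coreceptor, had 8.91 and 8.75 in SRC-3-deficient cells, against 8.54 and 8.29 in their wild-type cells (log2 difference 0.42, limma adjusted p = 0.133). It had 9.14 and 9.13 in RORγt-deficient cells, against 8.92 and 9.0 in their wild-type cells (0.18, limma adjusted p = 0.229). Both deficient arrays thus lay above both wild-type arrays in each experiment, as they did for Gata3. The same held for 23.0% of all genes in the SRC-3 experiment and for 35.8% in the RORγt experiment. Cd68, a lysosomal protein gene of macrophages, had 9.38 and 9.06 in SRC-3-deficient cells, against 8.97 and 8.84 in their wild-type cells (log2 difference 0.31, limma adjusted p = 0.372). In RORγt-deficient cells it had 9.79 and 10.07, against 10.33 and 10.26 in their wild-type cells (−0.37, limma adjusted p = 0.0834). The part of Klrd1, Cd8b1 and Cd68 in the values below was not tested.

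The sex of the mice moved with genotype. Xist, the transcript of the inactive X chromosome of females, had 6.37 and 6.08 in RORγt-deficient cells, against 12.55 and 12.76 in their wild-type cells. In SRC-3-deficient cells it had 7.10 (replicate 1) and 13.60 (replicate 2), against 13.65 and 13.52 in their wild-type cells. In the RORγt comparison, sex and genotype therefore cannot be told apart. Each value below is a log2 signal, and each difference is deficient minus wild type within 1 experiment.

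Gata3 was higher in the deficient cells than in the wild-type cells of both experiments, by a similar amount. In RORγt-deficient cells its log2 signal was 10.27 and 10.66, against 9.45 and 9.77 in their wild-type cells (probe set 10479981). In SRC-3-deficient cells it was 9.20 and 9.14, against 8.56 and 8.19 in their wild-type cells. In each experiment the lower deficient array thus lay above the higher wild-type array, by 0.50 in the RORγt experiment and by 0.58 in the SRC-3 experiment.

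The mean of Gata3 was 10.46 ± 0.27 in RORγt-deficient cells and 9.61 ± 0.23 in wild-type cells (SD, n = 2 each), which is 1.81-fold higher (log2 difference 0.86, SE 0.17, limma adjusted p = 0.0138). Of the 11128 genes tested, 140 rose by at least as much in this comparison (1.26%). The mean was 9.17 ± 0.04 in SRC-3-deficient cells and 8.38 ± 0.26 in wild-type cells (SD, n = 2 each). This is 1.74-fold higher (log2 difference 0.80, SE 0.17) but did not pass the test over all genes (limma adjusted p = 0.121). There the 95% interval of the difference ran between 0.40 and 1.19, and 48 genes rose by at least as much (0.431%). The 2 effects differed by 0.06 (RORγt minus SRC-3), with an interval between −0.50 and 0.62 (limma adjusted p = 0.927), so a difference of effect of up to about that size could not be seen with these arrays. The SRC-3-deficient pair, 1 array of which had the male and 1 the female pattern of Xist, differed by 0.06 in Gata3. The part of sex in the values of Gata3 was not tested. In RNA from a whole culture, a change in the share of cells that express a gene and a change in RNA per cell cannot be told apart.

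**Figure D1:**
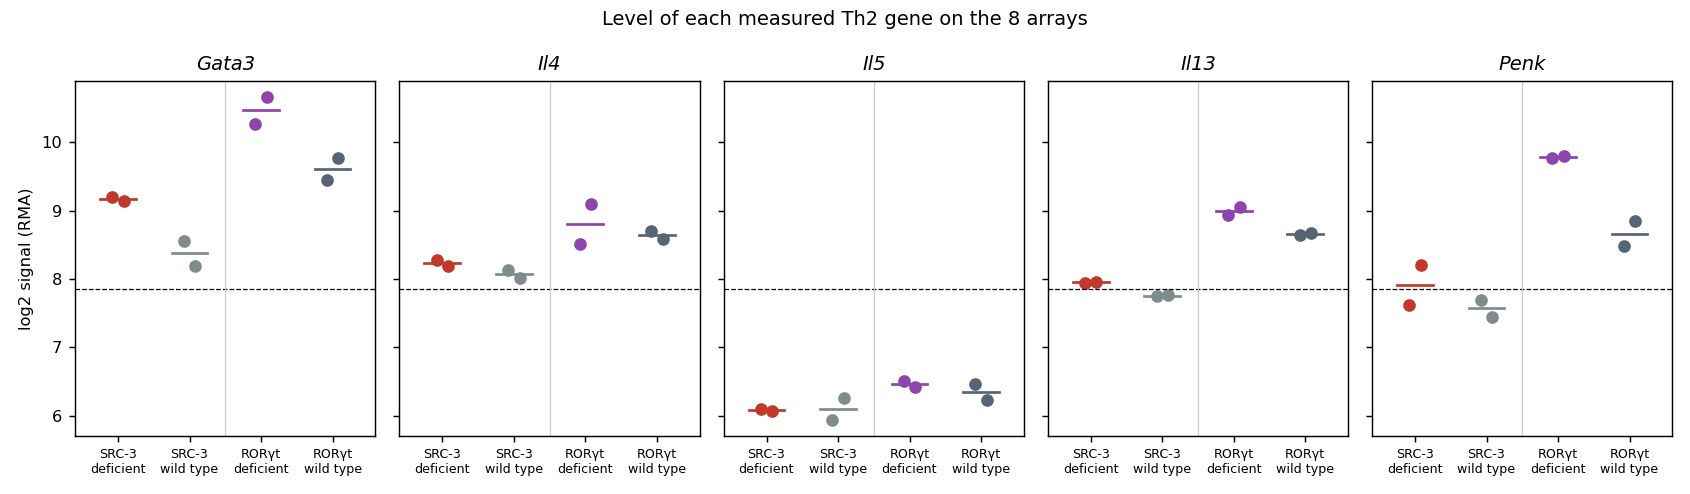
Log2 signal of the 5 measured genes on each array, with 1 point per array and a bar at the mean of each group of 2, and the median of all deposited values (7.85) as a dashed line. Gata3 and Il13 are higher on both deficient arrays of each experiment, Penk only on those of the RORγt experiment, and Il5 lies between 5.95 and 6.52 throughout. Heights of different genes come from different probes and cannot be set against each other.

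The call of Gata3 in the RORγt comparison was lost without RORγt-deficient replicate 2 (log2 difference 0.66, limma adjusted p = 0.0737) and without RORγt wild-type replicate 1 (0.70, limma adjusted p = 0.0954). In the SRC-3 comparison no array left out brought a call, and the difference lay between 0.61, without wild-type replicate 2, and 0.98, without wild-type replicate 1.

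The 3 cytokine genes did not move together. They lie on chromosome 11 of the mouse in the order Kif3a, Il4, Il13, Rad50, Il5 and Irf1, per the RefSeq annotation of GRCm38. Il13, whose product drives mucus production and airway responses, had log2 signals of 8.94 and 9.06 in RORγt-deficient cells, against 8.65 and 8.68 in their wild-type cells (probe set 10385837). In SRC-3-deficient cells it had 7.94 and 7.96, against 7.75 and 7.76 in their wild-type cells. The groups did not overlap in either experiment, but the levels of the SRC-3 experiment lay within 0.2 of the lower limit of clear signal.

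Il13 rose 1.26-fold in RORγt-deficient cells, with means of 9.0 ± 0.08 and, in wild-type cells, 8.66 ± 0.02 (SD, n = 2 each; log2 difference 0.34, SE 0.06, limma adjusted p = 0.00976). Its difference in SRC-3-deficient cells was 0.20 (SE 0.06, interval between 0.06 and 0.34) and did not pass the test (limma adjusted p = 0.252). The call in the RORγt comparison was lost without RORγt-deficient replicate 2 (limma adjusted p = 0.067), wild-type replicate 1 (0.0713) or wild-type replicate 2 (0.063), while the difference stayed between 0.28 and 0.40 whichever array was left out.

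Il4, the cytokine that starts and sustains Th2 differentiation, had log2 signals of 8.51 and 9.09 in RORγt-deficient cells, against 8.70 and 8.59 in their wild-type cells (probe set 10385832). The deficient arrays lay on either side of the wild-type pair and 0.58 apart. In SRC-3-deficient cells the signals were 8.28 and 8.19, against 8.13 and 8.02 in their wild-type cells, with no overlap but a gap of 0.06. The log2 difference was 0.16 in both comparisons (SE 0.16 in both; limma adjusted p = 0.541 for RORγt and 0.765 for SRC-3). Both intervals ran between −0.22 and 0.54, so a rise of up to 1.45-fold or a smaller fall was within the error. Without RORγt-deficient replicate 2 the RORγt difference was −0.13, and without replicate 1 it was 0.45 (limma adjusted p = 0.0528).

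Il5, the growth factor gene of eosinophils, lay below the lower limit of clear signal on all arrays (probe set 10376054). Its log2 signals were 6.52 and 6.42 in RORγt-deficient cells, against 6.46 and 6.24 in their wild-type cells. They were 6.10 and 6.07 in SRC-3-deficient cells, against 5.95 and 6.27 in their wild-type cells. The groups overlapped in both experiments. In a fit without the filter on dim genes, the log2 difference was 0.12 for RORγt (SE 0.11, limma adjusted p = 0.626) and −0.02 for SRC-3 (SE 0.11, limma adjusted p = 0.979). At this signal, differences in transcript level can be compressed and may not be detectable.

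Of the other genes of this stretch, Irf1, an interferon-regulated transcription factor, rose in RORγt-deficient cells (log2 difference 0.56, SE 0.09, limma adjusted p = 0.00641), a call lost without RORγt wild-type replicate 2 (limma adjusted p = 0.0556). Rad50, a DNA repair gene whose introns hold the locus control region of the Th2 cytokines, gave 0.09 (limma adjusted p = 0.614). Kif3a, a kinesin gene, gave 0.13 (limma adjusted p = 0.215). In the SRC-3 comparison the values were 0.20 for Irf1 (limma adjusted p = 0.406), 0.06 for Rad50 (0.886) and 0.11 for Kif3a (0.559).

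The promoter windows of Gata3 and Il13, which rose without RORγt, and of Il4, the neighbour of Il13 that did not pass the test, are shown to compare their letters. Each window runs 5′ to 3′ on the gene's strand, from 250 bases before to 50 bases after a RefSeq start site (GRCm38.p6). They are chr2:9878551-9878850, minus strand, for Gata3, chr11:53634653-53634952, minus strand, for Il13 and chr11:53618616-53618915, minus strand, for Il4. The table holds 2 windows for Il4, and the one of the start site farther upstream is given. Capitals mark matches, on either strand, to GATAA (a core read by GATA factors) and TGCTGA (a half-site of Maf factors).
Gata3: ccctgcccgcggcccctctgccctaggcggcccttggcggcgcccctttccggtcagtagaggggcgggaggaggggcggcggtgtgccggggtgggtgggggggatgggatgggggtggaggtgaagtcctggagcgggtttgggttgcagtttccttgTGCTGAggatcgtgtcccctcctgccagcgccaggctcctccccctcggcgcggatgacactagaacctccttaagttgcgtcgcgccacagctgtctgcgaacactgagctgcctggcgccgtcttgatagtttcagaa
Il13: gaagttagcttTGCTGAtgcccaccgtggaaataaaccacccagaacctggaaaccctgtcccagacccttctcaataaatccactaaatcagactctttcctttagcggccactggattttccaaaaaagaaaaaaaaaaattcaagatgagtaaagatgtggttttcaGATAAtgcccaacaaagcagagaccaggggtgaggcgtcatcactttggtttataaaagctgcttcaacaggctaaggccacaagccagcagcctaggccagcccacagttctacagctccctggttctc
Il4: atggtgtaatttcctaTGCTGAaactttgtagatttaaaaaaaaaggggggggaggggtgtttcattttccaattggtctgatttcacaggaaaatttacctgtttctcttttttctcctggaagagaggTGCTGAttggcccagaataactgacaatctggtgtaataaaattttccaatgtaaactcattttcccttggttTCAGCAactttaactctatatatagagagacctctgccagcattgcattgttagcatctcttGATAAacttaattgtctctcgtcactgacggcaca
GATAA occurred 1 time in the Il13 window, 80 bases before the start site, and 1 time in the Il4 window, 16 bases after it, and 0 times in the Gata3 window. Only these exact letters were searched, and other forms of the GATA core were not counted. Of 32851 windows of this length in the RefSeq table, 25.4% hold GATAA on either strand. The motif TGCTGA occurred 3 times in the Il4 window and 1 time each in those of Il13 and Gata3, and 19.5% of all windows hold it. The half-site of ROR receptors, AGGTCA, was on either strand in none of the 3 windows and is in 16.3% of all windows. The motifs searched do not overlap in these windows. A match is a description of the letters and not a binding site.

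Penk showed the largest difference of the 5 genes in the RORγt comparison. Its log2 signals were 9.76 and 9.80 in RORγt-deficient cells, against 8.48 and 8.84 in their wild-type cells (probe set 10511363). In SRC-3-deficient cells they were 7.62 and 8.21, against 7.70 and 7.44 in their wild-type cells. All of these SRC-3 values but 8.21 lay below the lower limit of clear signal, where differences in transcript level can be compressed. The groups were 0.92 apart in the RORγt experiment and overlapped in the SRC-3 experiment, where the higher deficient array was replicate 2.

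Penk rose 2.17-fold in RORγt-deficient cells, with means of 9.78 ± 0.02 and, in wild-type cells, 8.66 ± 0.26 (SD, n = 2 each; log2 difference 1.12, SE 0.20, limma adjusted p = 0.00927). Of the 11128 genes tested, 49 rose by at least as much (0.44%). The call was lost without RORγt-deficient replicate 1 (limma adjusted p = 0.0622) or wild-type replicate 1 (0.0715), with differences of 1.14 and 0.94. In SRC-3-deficient cells the log2 difference was 0.35 (SE 0.20, interval between −0.11 and 0.80, limma adjusted p = 0.533). Leaving out replicate 1 of the SRC-3-deficient cells, the array with the male pattern of Xist, gave 0.64, and leaving out replicate 2 gave 0.05. The part of sex in the values of Penk was not tested. The RORγt effect exceeded the SRC-3 effect by 0.77 (SE 0.28), which did not pass the test of the difference over all genes (limma adjusted p = 0.225). None of the 5 genes passed that test, which 1.67% of all genes did, and 1 of the 5, Penk, had an unadjusted p under 0.05 by limma, as did 17.3% of all genes.

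Counted over the group, 3 of the 5 genes rose in RORγt-deficient cells and 0 fell, in a comparison where 10.0% of the 11128 genes tested rose and 9.37% fell. In the SRC-3 comparison 0 of the 5 passed, where 0.189% of all genes rose and 0.0359% fell (21 and 4 genes, against 16 and 6 after quantile normalisation), and 2 of the 5 (Gata3 and Il13) had an unadjusted p under 0.05 by limma, as did 12.5% of all genes. The deficient arrays lay wholly above the wild-type arrays for 3 of the 5 in the SRC-3 experiment (Gata3, Il4 and Il13), as they did for 23.0% of all genes. In the RORγt experiment they did so for 3 of the 5 (Gata3, Il13 and Penk), and for 35.8% of all genes. Of the 5, 4 passed the filter on dim genes and Il5 did not.

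**Figure D2:**
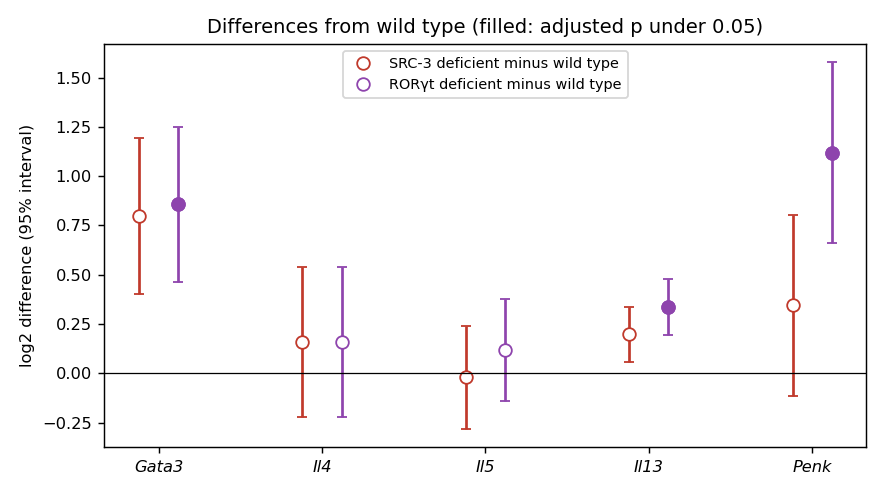
Log2 difference from wild type of each gene, SRC-3 deficient on the left and RORγt deficient on the right of each pair, with the 95% interval of the limma fit. Filled points passed an adjusted p of 0.05: Gata3 (0.86), Il13 (0.34) and Penk (1.12) in the RORγt comparison. Open points did not.

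**Figure D3:**
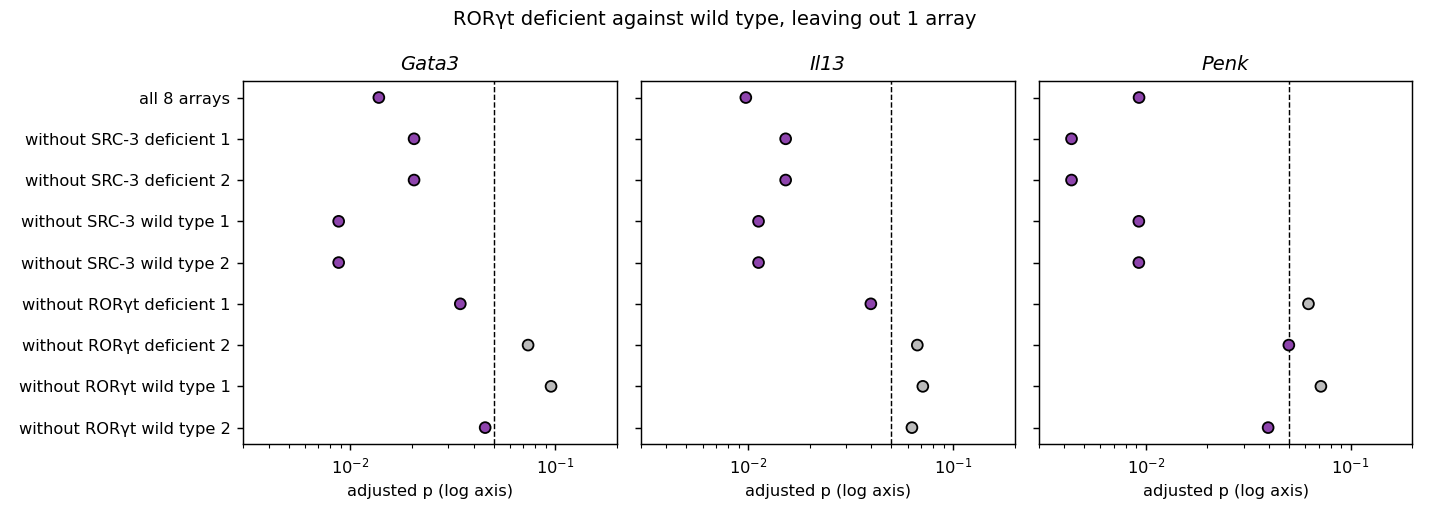
Adjusted p (log axis) of Gata3, Il13 and Penk in the RORγt comparison with all arrays and with each of the 8 arrays left out in turn, and the threshold of 0.05 as a dashed line. Arrays of the SRC-3 experiment enter this comparison only through the pooled estimate of spread. Leaving out any 1 of them left the differences unchanged and the calls in place. Leaving out 1 array of the RORγt experiment gave values up to 0.0954 (Gata3), 0.0713 (Il13) and 0.0715 (Penk).

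The wild-type cells of the 2 experiments had different levels of these genes. Relative to the mean of SRC-3 wild-type cells, that of RORγt wild-type cells was higher by 1.23 for Gata3, 1.09 for Penk, 0.91 for Il13, 0.57 for Il4 and 0.24 for Il5. This was not tested, because the labels do not say how the experiments differed otherwise, and each deficient group was set only against its own wild type.

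The wider Th2 pathway was described with 5 further gene lists, of which 55 genes passed the filter. In RORγt-deficient cells 8 of the 55 rose and 7 fell (19.4% of all genes tested passed in either direction), and their median difference was −0.01, beside 0.00 over all genes. In SRC-3-deficient cells 0 rose and 1 fell (0.225% of all genes passed), with a median of 0.06 beside 0.02 over all genes. The RORγt count was 3 without RORγt-deficient replicate 1, 7 without replicate 2, 4 without wild-type replicate 1 and 3 without wild-type replicate 2.

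Of the signalling components and transcription factors of the Th2 pathway, 20 passed the filter. In RORγt-deficient cells 2 of these fell and 0 rose, where 9.37% of all genes fell and 10.0% rose. Rbpj, the nuclear effector of Notch signals, fell (log2 difference −0.44, limma adjusted p = 0.0167), as did Dusp5, a phosphatase that restrains ERK and is induced through STAT5 (−0.73, limma adjusted p = 0.031). The other 18 did not pass there, among them Stat6, which carries the IL-4 signal (−0.02, limma adjusted p = 0.883). Maf, the gene of a factor that activates Il4, fell in SRC-3-deficient cells, with log2 signals of 11.73 and 11.59, against 12.32 and 12.36 in their wild-type cells (log2 difference −0.68, limma adjusted p = 0.0198). That call held without SRC-3 wild-type replicate 1 (limma adjusted p = 0.0417) and was lost without any of the 7 remaining arrays (between 0.0514 and 0.0746). In RORγt-deficient cells Maf gave −0.11 (limma adjusted p = 0.354).

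Of 20 effector and surface genes that Th2 cells share with other helper cells, 12 passed the filter. Of these, 4 fell and 1 rose in RORγt-deficient cells, where 9.37% of all genes tested fell and 10.0% rose. The genes that fell were Il24, of the IL-10 family (log2 difference −1.32, limma adjusted p = 0.0195), Lif, a cytokine of the IL-6 family (−1.17, 0.0242), Csf2, which encodes GM-CSF (−1.07, 0.00369), below the limit of clear signal in the deficient cells, and Cysltr1, a leukotriene receptor (−0.69, 0.00228). Ccr8, a chemokine receptor of Th2 and regulatory T cells, rose (0.37, limma adjusted p = 0.0263). In SRC-3-deficient cells none of the 12 passed by limma. There Il9, a cytokine gene of Th9 and Th2 cells, had log2 signals of 8.33 and 9.27, against 7.45 and 7.77 in wild-type cells (log2 difference 1.19, limma adjusted p = 0.133). The deficient pair differed from each other by more than the wild-type pair did, and both wild-type values lay below the limit of clear signal. Ecm1, which helps Th2 cells leave lymph nodes in mice, gave −0.63 there (limma adjusted p = 0.167).

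Of 13 genes listed as opponents of the Th2 fate, 12 passed the filter. Among these 12, 4 rose and 1 fell in RORγt-deficient cells, where 10.0% of all genes tested rose and 9.37% fell. Zfpm1, which encodes FOG-1, a protein that binds GATA3 and represses its activity, rose (log2 difference 0.47, SE 0.09, limma adjusted p = 0.0142). Its log2 signals were 10.46 and 10.58 in RORγt-deficient cells, against 10.05 on both wild-type arrays. Stat4, the transducer of IL-12 (0.45, limma adjusted p = 0.015), Hlx, a homeobox partner of T-bet (0.45, 0.0173), and Socs3 (0.67, 0.0228) also rose. Socs3, a feedback inhibitor of cytokine signals, does not act against the Th2 fate alone. Bcl6, the repressor that directs follicular helper cells, fell (−0.37, limma adjusted p = 0.0377).

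In SRC-3-deficient cells none of these 12 passed by limma, and Zfpm1 gave 10.38 and 10.16, against 9.89 and 9.71 in wild-type cells (log2 difference 0.47, limma adjusted p = 0.108). Zfpm1 thus had the same difference, to 2 decimals, in both comparisons, without overlap in either, and the effects differed by 0.01 (limma adjusted p = 0.988). Tbx21, the gene of the Th1 factor T-bet, gave −0.53 in SRC-3-deficient cells (limma adjusted p = 0.243) and 0.34 in RORγt-deficient cells (0.177).

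Of 15 genes that receive or process the products of the group, 7 passed the filter. In RORγt-deficient cells 2 of these 7 rose and 0 fell, where 10.0% of all genes tested rose and 9.37% fell. Il1rap, which encodes the shared chain of the receptors for IL-1 and IL-33, rose there (log2 difference 0.40, limma adjusted p = 0.00542). Its adaptor gene Myd88 rose there too (0.24, limma adjusted p = 0.0473). In the SRC-3 comparison none of the 7 passed by limma, with 0.13 for Il1rap (limma adjusted p = 0.406). Of the calls in these lists, those of Csf2 and Cysltr1 held whichever array was left out, that of Il1rap was lost without RORγt-deficient replicate 1 (limma adjusted p = 0.0525), and those of Rbpj, Il24 and Stat4 were lost without RORγt-deficient replicate 1 or either wild-type array. Dusp5, Ccr8, Lif, Zfpm1, Bcl6, Socs3, Hlx and Myd88 each lost the call when any 1 RORγt-experiment array was left out.

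**Figure D4:**
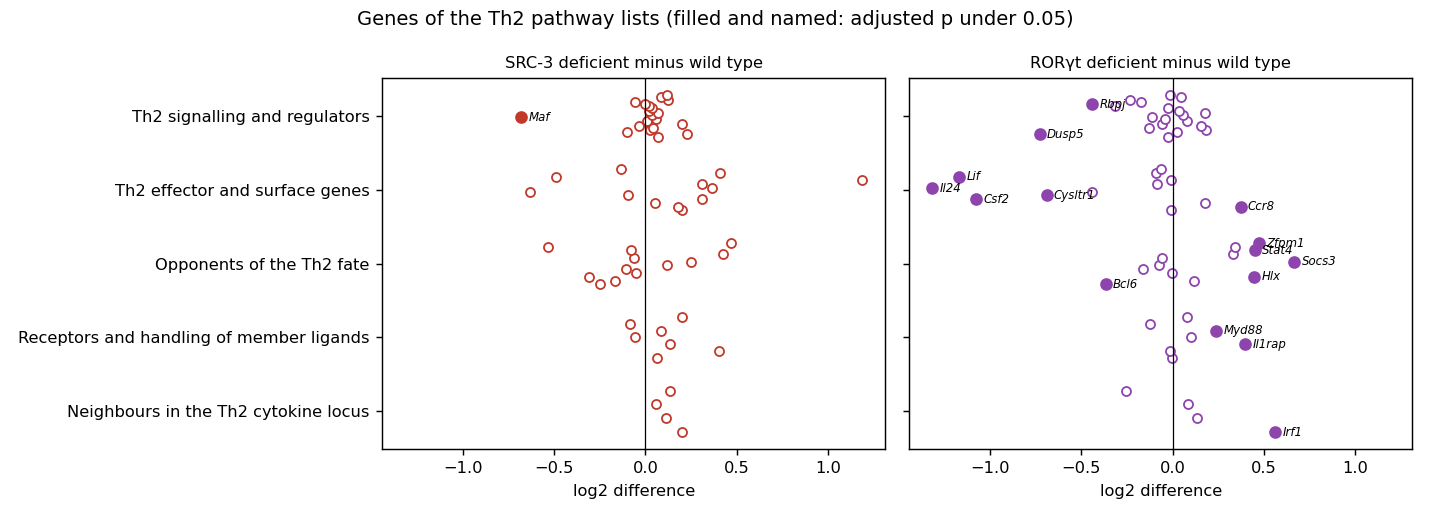
Log2 difference from wild type of the 55 genes of 5 Th2 pathway lists that passed the filter, in SRC-3-deficient cells (left) and RORγt-deficient cells (right). Each gene has 1 point, and the vertical spread within a list has no meaning. Filled, named points passed an adjusted p of 0.05: Maf alone in SRC-3-deficient cells, and 8 higher and 7 lower genes in RORγt-deficient cells.

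Of 9 markers of regulatory T cells that passed the filter, 2 rose in RORγt-deficient cells, 0 fell and 7 did not pass. Of all genes tested, 10.0% rose and 9.37% fell there. Those that rose were Nrp1, a semaphorin receptor gene (log2 difference 0.91, limma adjusted p = 0.0416), and Gpr83, a receptor gene (0.52, 0.0427). Both calls were lost when any 1 RORγt-experiment array was left out. Of the 7 that did not pass, Izumo1r (0.37), Tnfrsf18 (0.21), Ikzf2 (0.15) and Lrrc32 (0.13) had positive log2 differences in RORγt-deficient cells. Those of Tnfrsf9 (−0.40), Ikzf4 (−0.15) and Ctla4 (−0.06) were negative. In SRC-3-deficient cells none of the 9 passed by limma, and Gpr83 gave 1.0 (limma adjusted p = 0.0516). Averaged over the 10 named markers, RORγt-deficient cells had 11.02 and 11.11, against 10.85 and 10.95 in their wild-type cells. SRC-3-deficient cells had 10.52 and 10.27, against 10.22 and 9.90 in theirs. Their part in the values of Gata3 and Penk was not tested. Foxp3, the defining factor of these cells, lay below the lower limit of clear signal on every array, with 7.72 and 7.81 in RORγt-deficient cells, against 7.80 on both wild-type arrays. It was 7.66 and 7.55 in SRC-3-deficient cells, against 7.60 on both wild-type arrays.

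The 5 genes whose pattern was most like that of Gata3 were found over the 8 arrays, after each gene was centred on the mean of the 4 arrays of its experiment, among 292 genes whose centred values spanned at least 1. They were Gad2 (Pearson r = 0.97), which encodes a glutamate decarboxylase, Ephx1 (0.96), the microsomal epoxide hydrolase gene, Nrp1 (0.96), Mctp1 (0.95), a calcium-binding membrane protein gene, and Ms4a4b (0.94), which encodes a membrane protein of T cells. These values describe the ranking and carry no p, and the arrays share their genotypes, so any gene higher in both kinds of deficient cells ranks high.

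Gad2 had log2 signals of 8.63 and 8.82 in RORγt-deficient cells, against 7.60 and 7.87 in their wild-type cells. In SRC-3-deficient cells it had 8.87 and 8.41, against 7.75 and 7.46 in their wild-type cells. As for Gata3, both deficient arrays lay above both wild-type arrays in each experiment. The log2 differences of these 5 genes were 0.99 for Gad2, 0.61 for Ephx1, 0.91 for Nrp1, 1.04 for Mctp1 and 1.39 for Ms4a4b in RORγt-deficient cells. In SRC-3-deficient cells they were 1.04, 0.88, 0.84, 0.87 and 1.31 in the same order. These differences are part of the likeness by which the genes were chosen, so their limma results are not given as support here. Mctp1 lay below the limit of clear signal on every wild-type array and passed the filter through the deficient arrays alone. Gad2 lay below it on all wild-type arrays but RORγt wild-type replicate 2 (7.87).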

How the data were processed

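Total RNA of 8 cultures was measured on 8 arrays of 1 colour. As deposited, the values are log2 signals that the authors made with RMA (background correction, quantile normalisation and 1 value per probe set) in Expression Console, as the submitters' processing notes give it. They were used without change (35556 probe sets, values between 3.50 and 15.03). Array medians lay between 7.76 and 7.93. The number of arrays limits the precision.

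The 21789 probe sets with 1 symbol in the platform table were used (1621 with several were left out; gene IDs changed 0 symbols). A probe set had to reach 7.85, the median of all values, on at least 2 arrays, and the one with the highest mean stood for its gene, which left 11128 genes. Il5 lay below this and was fitted among all 19938 genes.

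Group means of all 8 arrays were fitted with limma 3.58.1 in R 4.3.3 (4 residual and 3.53 prior degrees of freedom), with contrasts for each experiment and their difference. Tests were two-sided, with Benjamini-Hochberg adjustment over all genes and a threshold of 0.05. Fits were tested on simulated data. The alternatives were quantile normalisation, no filter or a stricter one, the mean of probe sets, 4 arrays alone, a trend with a robust prior, the replicate number as a block and leaving out each array. The group and lists were chosen with earlier results of these data known. The text names all measured genes of the group, up to 5 genes per list and comparison that passed, otherwise up to 3 by smallest p, and the 5 genes most like Gata3. Beyond this rule, Stat6, Rad50, Foxp3, the regulatory T cell markers that did not pass and the values set beside a named gene's other comparison were chosen after they were seen. Some named genes are left out here.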

Additional observations from a re-analysis of the deposited data

Results flagged for a closer look

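The effect of genotype differed between the experiments, by limma's test of the difference (RORγt effect minus SRC-3 effect), for 5 named genes outside the group. Klrd1 differed by 2.37 on the log2 scale, with effects of 1.90 in the RORγt and −0.46 in the SRC-3 comparison. It reached the limit of clear signal, and so passed the filter, on the RORγt-deficient arrays alone, and its test is not given as support. Csf2 differed by −1.38 (SE 0.20, adjusted p = 0.0228), with effects of −1.07 in the RORγt and 0.31 in the SRC-3 comparison. Cysltr1 differed by −0.59 (SE 0.11, adjusted p = 0.049), with effects of −0.69 and −0.10. Hlx differed by 0.76 (SE 0.13, adjusted p = 0.0418), with effects of 0.45 and −0.31. Ncoa3, the gene targeted in the SRC-3 experiment, differed by 0.76 (SE 0.13, adjusted p = 0.0394), with effects of 0.17 and −0.58. The named genes were picked in part by small p on these same arrays. Their number therefore cannot be set against the 1.67% of all genes tested that differed. No gene of the group did (limma, with 1, Penk, at an unadjusted p under 0.05, beside 17.3% of all genes).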

How the results depend on the processing

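The counts and the direction of Gata3, Il13 and Penk held in the RORγt comparison under quantile normalisation, no filter, the mean of probe sets, 4 arrays alone, a trend with a robust prior and the replicate block, with limma adjusted p between 0.00082 and 0.0162. The stricter filter (9.78) kept Gata3 of these and left 1 call of the group, because Il13 and Penk fell below it. Leaving out 1 array left between 0 and 3 calls of the group in the RORγt comparison (0 without RORγt wild-type replicate 1, 1 without RORγt-deficient replicate 2), 0 in the SRC-3 comparison and 0 for the difference of effects. It left between 3 and 16 calls of the Th2 pathway lists for RORγt and between 0 and 3 for SRC-3. The pathway lists held 0 SRC-3 calls with the 4 arrays alone. With the replicate number as a block, 1 gene of the group, Gata3, passed in the SRC-3 comparison (adjusted p = 0.00842), as did 5 genes of the pathway lists. No label says that numbers pair the arrays, and deviations of same-numbered arrays correlated at 0.54 in the SRC-3 and 0.0017 in the RORγt experiment. Signs turned only for differences that had not passed: leaving out 1 array moved Il4 between −0.13 and 0.45 for RORγt, Il5 between −0.18 and 0.14 for SRC-3, and the difference of effects between −0.13 and 0.25 for Gata3, −0.29 and 0.29 for Il4 and −0.019 and 0.30 for Il5, and quantile normalisation gave 0.011 for Il4. The cause was not tested. Over all genes the SRC-3 comparison gave between 0 and 61 calls leaving out 1 array, 0 with 4 arrays alone, 301 with the block, 47 with the trend, 14 with the stricter filter and 25 as reported. The RORγt comparison gave between 486 and 2539 leaving out 1 array, 3389 with 4 arrays alone, 3411 with the block and 2157 as reported. The test of the difference gave 186 as reported, between 15 and 264 leaving out 1 array, 945 with the block and 119 with the stricter filter.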
